A study of Mus musculus with 24 samples.

Results

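The 6 arrays described here hold RNA from MLO-Y4 cells, an immortalised mouse osteocyte-like line, that had been given the Cx43(E2) antibody and then kept either at the ug position of a magneto-gravitational platform (3 arrays) or in an incubator (C, 3 arrays). They were chosen by their titles (E2 numbers 1, 2 and 3, ug and C) and are 6 of the 24 arrays in the study. Both groups therefore carry the same antibody, which blocks hemichannels made of connexin 43. The antibody stood in the medium at 28 µg/ml (1:50) for 30 min at 37 °C and 5% CO2, in dishes of 35 mm. The other arrays hold the 1g and 2g positions of the same platform with this antibody, and all 4 environments with an irrelevant rabbit IgG, 3 arrays for each. How long the cells stayed on the platform is not given in the sources used here. The ug cells were on the platform and the incubator cells were not, so position and platform cannot be told apart in this comparison. The 1g and 2g cells shared the platform. A set is the 4 arrays of 1 antibody and 1 number. No label says that the numbers are separate cultures, so p-values measure only the spread between these arrays.

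Platforms of this kind use a strong, graded magnetic field to offset or add to the weight of cells in a dish. Osteocytes sense load, and connexin 43 in their membrane forms both gap junctions between cells and hemichannels, which release ATP and prostaglandin E2 to the outside. Immediate early genes are transcription factors and feedback regulators whose RNA appears within minutes of calcium, cAMP or MAP kinase signals, without new protein being made first. Many of them also respond to handling, temperature or stress.

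Several of the largest differences between ug and incubator under the blocking antibody lay in immediate early and stress-response genes, which were higher at ug. Gem, a small GTPase that restrains calcium channels and the cytoskeleton, differed most (7.50-fold on the linear scale), followed by Fosb (2.63-fold), Atf3 (2.62-fold) and Fos (2.31-fold). The largest difference downward was Pdk4, a kinase that inhibits pyruvate dehydrogenase, at 0.558 of its incubator level. None of these passed the test over all 24 arrays as labelled. Limma, fitted to 14489 genes with 8 group means, called 0 genes (0%), with a smallest adjusted p of 0.594. Of all genes, 611 (4.22%) had an unadjusted p below 0.05, 229 of them higher (1.58%) and 382 lower (2.64%). After quantile normalization these were 366 higher and 285 lower, and the median difference over all genes moved from -0.03 to -0.01. With the set as a block over the 24 arrays limma again called 0 genes, with 1485 at an unadjusted p below 0.05 and a smallest adjusted p of 0.0913. Left without set 1 it called 10 genes.

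A paired fit of the 6 arrays alone called 53 genes (0.366%), 48 higher (0.331%) and 5 lower (0.0345%), all 53 with the same sign in 3 of 3 sets, which such a call nearly requires. Over all genes 10.1% were higher in 3 of 3 sets and 19.3% lower. That fit has 2 residual degrees of freedom and borrows its error from genes of like brightness. For 44 of the 53 genes the plain standard error of the 3 pair differences was larger than the one used, for Gem 0.44 against 0.19. Without the trend of variance with brightness it called 1 gene, Gem. Without number 1, 2 or 3 it called 82, 51 or 418 genes, and for the last pair of these fits the error was taken wholly from the other genes. A gene's own 3 pairs cannot give an exact two-sided sign-flip p below 0.25. Calls of the paired fit are named as such below, and all other differences are values that did not pass.

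One pair of arrays outside the 6 bears on these tests, because the 24-array fit pools the error of all groups. In the IgG arm the ug array of number 2 was the lowest of the 3 ug arrays for all 15 genes named below as highest in the E2 arm (23.6% of all genes), and its 2g array was the highest of the 3 2g arrays for 13 of the 15 (33.6% of all genes). Gem read 6.05, 8.69 and 6.72 at 2g and 8.30, 5.97 and 10.50 at ug on IgG numbers 1, 2 and 3. The 2g array of number 2 was not the highest for Fnip2 and Egr2. The labels were kept, and the cause was not tested. Without these 2 arrays the unblocked fit called 4 genes for ug against C in the E2 arm, all higher, with unchanged differences and smaller errors. They were Gem (2.91 ± 0.45, limma adjusted p = 0.0392), Ppp1r15a (1.04 ± 0.17), A3galt2 (1.13 ± 0.19) and Slc23a3 (0.68 ± 0.11). A gene was tested if 3 or more of the 24 arrays reached their 40th percentile, which was 5.96 to 6.08 on the 6 arrays. A3galt2 was below it on all 3 incubator arrays and above it on all 3 ug arrays, which alone admit it. Slc23a3 is dim as well, with values given below. The 2 IgG arrays were picked after their values for such genes were seen, which by itself lowers the error of those genes and raises their IgG differences.

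For reading the counts below, the 3 ug arrays all lay above the 3 incubator arrays for 408 genes (2.82%) and all below for 761 (5.25%), 8.07% in all. The mean difference was above 0 for 39.3% of genes. All differences are ug minus C in log2 intensity, given with the standard error of the 24-array fit. Where a paired-fit p stands beside such an error, they come from different fits. In the 24-array fit as labelled no gene had a limma adjusted p below 0.594 without the block.

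The AP-1 factors, which bind DNA as Fos and Jun dimers, were higher at ug for 11 of 11 tested members, with a median difference of 0.29 against -0.03 over all genes. Atf3 (probe set 10361091), a stress-induced factor of the same family, read 8.02, 8.0 and 7.94 in the incubator (sets 1, 2 and 3) and 8.93, 10.07 and 9.12 at ug. Fosb (10560481) read 8.16, 7.63 and 7.72 in the incubator and 9.04, 9.69 and 8.96 at ug. Fos (10397346) read 6.92, 7.34 and 7.49 in the incubator and 8.0, 9.36 and 8.01 at ug. In each of these the lowest ug array was above the highest incubator array, and set 2 differed most. The differences were 1.39 ± 0.31 for Atf3, 1.39 ± 0.36 for Fosb and 1.21 ± 0.34 for Fos (0.76 without the ug array of set 2), and the paired fit called all 3 (limma adjusted p 0.00461, 0.00461 and 0.0191). Junb, a Fos partner, was the fourth member it called, at 0.60 ± 0.20. Jun (0.04) and Fosl1 (0.03) were nearly level, and both turned to below 0 when the ug array of set 2 was left out.

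Fos, Fosb, Atf3 and the stress gene Ppp1r15a are shown here by their promoters (RefSeq, GRCm38.p6, from 250 bases before to 50 after the start, written along the gene's strand). All 4 were higher on the same arrays, as were the other genes named as highest. They were picked by hand, and each holds the half-site marked below, which not every named gene does. They lie at chr1:191183284-191183583 (Atf3, minus strand), chr7:19309996-19310295 (Fosb, minus), chr12:85473640-85473939 (Fos, plus) and chr7:45526219-45526518 (Ppp1r15a, minus). Capitals mark TGACG, the half-site bound by CREB and ATF factors, or its complement CGTCA, the 2 overlapping where they form the full site TGACGTCA.
Atf3: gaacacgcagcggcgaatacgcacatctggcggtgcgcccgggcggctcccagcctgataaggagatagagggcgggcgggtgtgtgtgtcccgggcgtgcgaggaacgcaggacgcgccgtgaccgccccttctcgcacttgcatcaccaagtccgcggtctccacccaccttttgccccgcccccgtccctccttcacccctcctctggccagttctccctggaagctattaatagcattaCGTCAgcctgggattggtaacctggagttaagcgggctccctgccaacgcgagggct
Fosb: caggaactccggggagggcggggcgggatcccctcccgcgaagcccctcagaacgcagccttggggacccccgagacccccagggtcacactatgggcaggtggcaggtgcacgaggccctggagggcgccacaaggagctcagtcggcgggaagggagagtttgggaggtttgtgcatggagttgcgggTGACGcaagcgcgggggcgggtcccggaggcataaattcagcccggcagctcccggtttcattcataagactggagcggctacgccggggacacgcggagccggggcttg
Fos: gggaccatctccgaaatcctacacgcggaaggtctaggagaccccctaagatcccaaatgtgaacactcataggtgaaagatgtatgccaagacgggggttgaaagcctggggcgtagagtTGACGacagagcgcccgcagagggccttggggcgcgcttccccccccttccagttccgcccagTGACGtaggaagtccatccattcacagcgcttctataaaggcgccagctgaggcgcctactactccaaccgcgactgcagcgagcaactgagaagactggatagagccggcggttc
Ppp1r15a: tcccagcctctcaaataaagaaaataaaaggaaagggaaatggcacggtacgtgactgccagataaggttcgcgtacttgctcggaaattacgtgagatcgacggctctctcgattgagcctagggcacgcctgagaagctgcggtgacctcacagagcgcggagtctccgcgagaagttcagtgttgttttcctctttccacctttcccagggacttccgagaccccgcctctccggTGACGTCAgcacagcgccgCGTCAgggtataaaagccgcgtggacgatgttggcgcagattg
The half-site begins 7 bases before the start in Atf3 and 60 in Fosb, and 129 and 66 before it in Fos. Ppp1r15a holds the full site, which begins 12 bases before the start, and a further half-site after the start. Of the 15 genes named as highest at ug, 11 have a promoter in the table, Gem not among them, and 9 of the 11 (81.8%) hold the half-site. Of the 48 genes that the paired fit called higher, 39 have a promoter and 20 of these (51.3%) hold it, against 23.0% of all 27025 genes in the table and 3 of 12 (25%) for the genes named as lowest. The full site is in 1 of the 11 (9.09%), in 5 of the 39 (12.8%) and in 2.03% of all genes. The table holds genes that were not tested here, and the share over the tested genes was not taken. A match describes these letters and shows no binding.

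Gem (10503334) read 6.76, 6.74 and 6.53 in the incubator, a mean of 6.67 ± 0.13 (SD, n = 3). At ug it read 9.01, 10.48 and 9.25, a mean of 9.58 ± 0.79 (SD, n = 3). The 2 groups were more than 2 log2 units apart at their nearest arrays, and the difference was 2.91 ± 0.75 (paired fit, limma adjusted p = 2.2e-05). Its relatives Rrad (-0.04) and Rem2 (0.06) were level.

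The list of Egr and Nr4a factors, zinc finger factors and orphan receptors of the early response, also holds other early genes such as Ier5. Of its 12 tested members 11 were higher, with a median difference of 0.41. Nr4a3 (10504838) read 7.37, 7.0 and 6.6 in the incubator and 8.06, 8.66 and 7.25 at ug. It was higher within each set although the groups overlapped (1.00 ± 0.31, or 0.66 without the ug array of set 2, paired fit, limma adjusted p = 0.0186). Egr1 (10454782) read 9.24, 9.66 and 9.82 in the incubator and 10.24, 11.02 and 10.09 at ug, with no overlap (0.87 ± 0.33, paired fit, limma adjusted p = 0.0203). Nr4a1 was higher by 0.94 ± 0.40 and was not called. Egr2 (0.77 ± 0.33) and Arc (0.75 ± 0.24), a synaptic early gene, were called in the paired fit, and Ier5 (0.38 ± 0.13) was not. Without the ug array of set 2, Nr4a1 was at 0.53, Egr2 at 0.43 and Arc at 0.49. The list's median was 0.38 in set 1, 0.66 in set 2 and 0.10 in set 3.

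**Figure D1:**
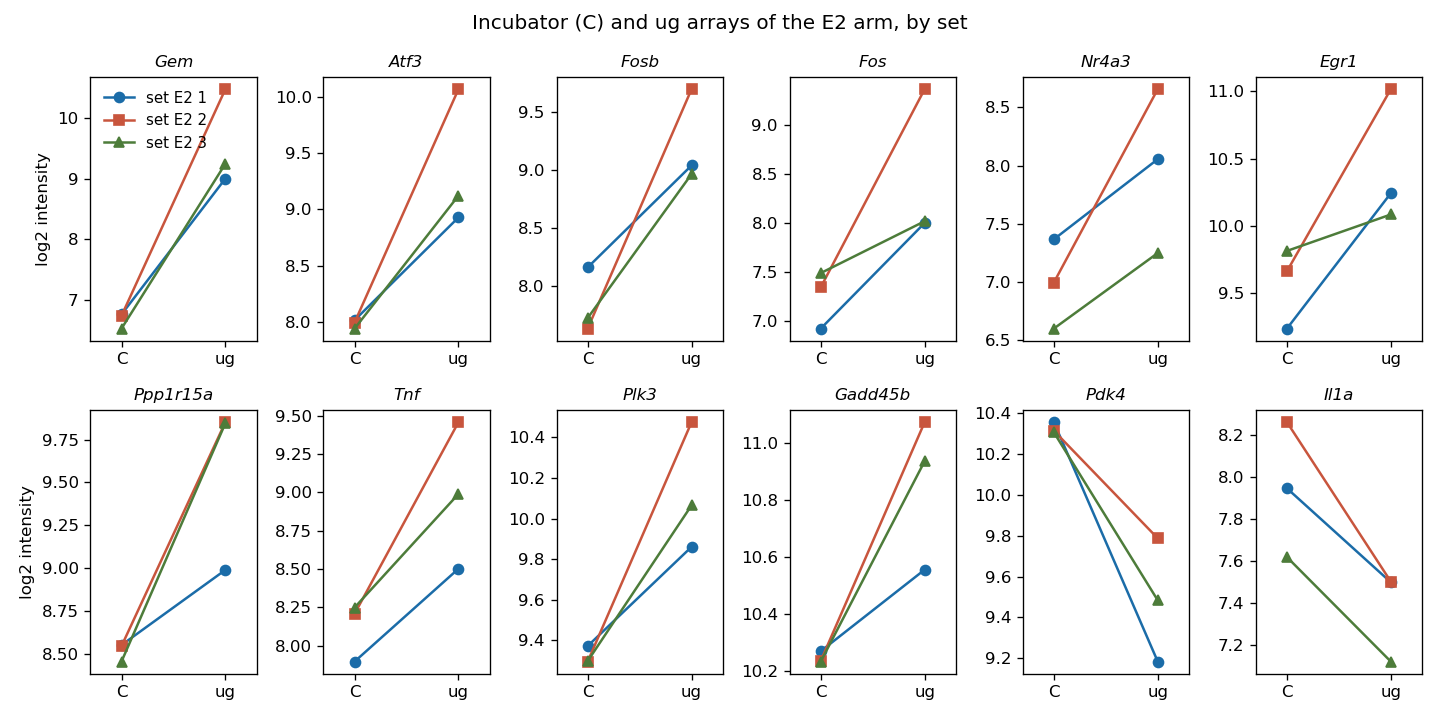
Log2 intensity of 12 genes on the incubator (C) and ug arrays of the E2 arm, 1 line for each set, each panel with its own axis. Every line of the first 10 genes runs up and every line of Pdk4 and Il1a runs down, and set 2 runs steepest for Gem, Atf3, Fosb and Fos.

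Some genes that switch these signals off were higher at ug. Of the MAP kinase phosphatases and Sprouty proteins, which oppose ERK signalling, 12 of 15 were higher (median 0.19), and the paired fit called Spry2 (0.74 ± 0.32), Dusp6 (0.45 ± 0.21, or 0.29 without the ug array of set 2) and Dusp4 (0.42 ± 0.19). Dusp2 was 0.39 ± 0.15 and not called. Rgs2, which shortens Gq-coupled receptor signals, read 6.05, 5.92 and 6.23 in the incubator and 6.68, 7.19 and 6.56 at ug (0.74 ± 0.21, called in the paired fit). The list of Klf factors and early growth brakes had 12 of 13 higher (median 0.18), but its median was 0.24, 0.42 and -0.09 in sets 1, 2 and 3. Klf4 (0.49 ± 0.21, or 0.30 without the C array of set 3) was called in the paired fit. Zfp36, which destabilises cytokine messages, was at 0.59 ± 0.20, Btg2 at 0.30 ± 0.13 and Btg1 at 0.27 ± 0.10, none of them called. Of the CREB targets, 7 of 8 were higher (median 0.31). Crem, which encodes a cAMP-responsive repressor, was called in the paired fit (0.51 ± 0.15), and Ppargc1a (0.53 ± 0.29) and Sik1 (0.35 ± 0.18) were not. Over these groups, Gem and its relatives included, 55 of 62 distinct tested genes were higher (39.3% of all genes). The ug arrays lay wholly above the incubator arrays for 16 of the 62 (2.82% of all genes) and wholly below for 0 (5.25%). The paired fit called 14 of the 62 (0.366% of all genes). The lists were written with earlier results of these data known, and their genes were read on the same arrays. These counts are therefore descriptions and not separate evidence.

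Members of the integrated stress response, in which phosphorylated eIF2 alpha favours translation of Atf4, were higher for 12 of 13 (median 0.19). Ppp1r15a (10563338), whose product brings a phosphatase to eIF2 alpha, read 8.55, 8.55 and 8.46 in the incubator. At ug it read 8.99, 9.85 and 9.85, above all incubator arrays, with sets 2 and 3 level with each other. The difference was 1.04 ± 0.27 (paired fit, limma adjusted p = 0.0114). Atf4 itself was at 0.26 ± 0.08, Cebpb at 0.35 ± 0.13 and Chac1, an Atf4 target that degrades glutathione, at 0.42 ± 0.24, none of them called. The unfolded protein response, which often accompanies this pathway, had 10 of 20 members higher and a median of -0.01, with Dnajb9 at 0.35 ± 0.15. Cytosolic heat shock proteins had 13 of 19 higher (median 0.05), among them Hspa1a at 0.38 ± 0.17 and Hspb8 at 0.19 ± 0.06, neither called.

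Among p53 targets and Gadd45 genes 9 of 14 were higher (median 0.05), with a few far from the rest. Plk3, a stress-activated kinase, read 9.37, 9.29 and 9.30 in the incubator and 9.86, 10.48 and 10.07 at ug (0.81 ± 0.23). Gadd45b (10364950), a growth arrest and DNA damage gene, read 10.27, 10.24 and 10.23 in the incubator and 10.56, 11.07 and 10.94 at ug (0.61 ± 0.15). Gadd45g was at 0.61 ± 0.17, and the paired fit called these 3. Gadd45a (0.50 ± 0.24) was not called.

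**Figure D2:**
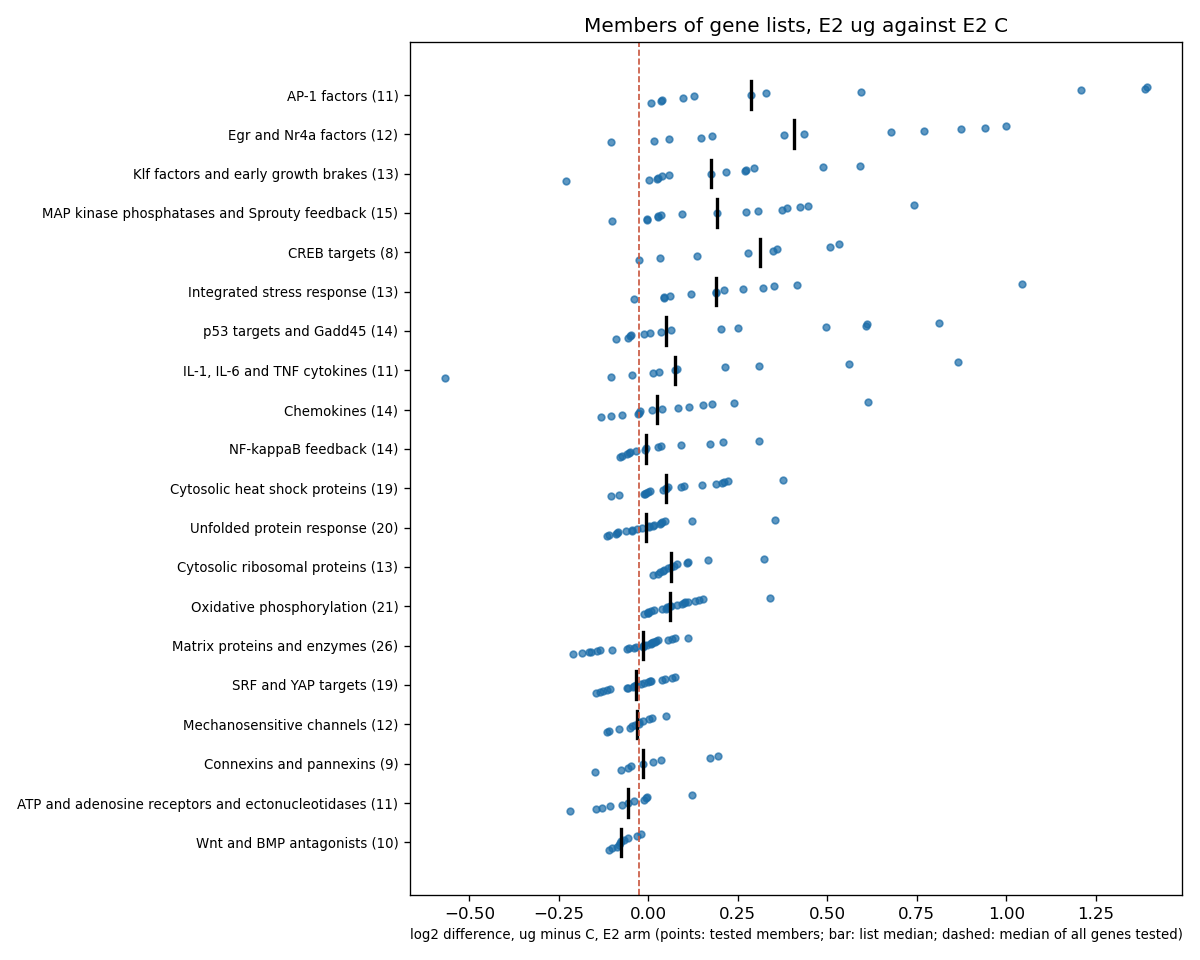
Log2 difference, ug minus C in the E2 arm, for the tested members of 20 gene lists (number tested in brackets). Bars mark list medians and the dashed line the median of all 14489 genes. The 5 early-response lists at the top and the integrated stress response, with medians of 0.18 to 0.41, lie right of the line, and the lists from NF-kappaB feedback downward keep medians between -0.08 and 0.06.

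Inflammatory genes went both ways. Tnf (10450501), the gene of tumour necrosis factor, read 7.90, 8.21 and 8.25 in the incubator and 8.50, 9.46 and 8.99 at ug (0.86 ± 0.23, paired fit, limma adjusted p = 0.00967). Il1a (10487588), the gene of interleukin 1 alpha, went the other way, from 7.95, 8.26 and 7.62 in the incubator to 7.50, 7.50 and 7.12 at ug (-0.57 ± 0.27, paired fit, limma adjusted p = 0.0203). Neither gene's groups overlapped. Il11, an interleukin that acts on bone cells, differed widely between sets and was higher by 0.56 ± 0.41 (called in the paired fit, 0.26 to 0.92 when 1 array was left out), and Il1rn, the interleukin 1 receptor antagonist, by 0.31 ± 0.20 (not called). Of the cytokine list 8 of 11 were higher (median 0.07) and of the chemokines 8 of 14 (median 0.02), where Cxcl2, a neutrophil attractant (0.61 ± 0.33, or 0.38 without the C array of set 1), was called in the paired fit and Cxcl1 (0.24 ± 0.15) was not. NF-kappaB feedback genes had 6 of 14 higher (median -0.01), with the inhibitor Nfkbia at 0.31 ± 0.11.

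The rest of the 15 genes named as highest are less easily grouped. A3galt2, a galactosyltransferase of glycolipid synthesis and among the dimmest named genes, read 5.89, 5.64 and 5.91 in the incubator and 6.62, 7.44 and 6.77 at ug (1.13 ± 0.23, paired fit, limma adjusted p = 0.0135). Snora31, a small nucleolar RNA, was at 0.87 ± 0.25 and not called, and was the only one of the 15 with its largest difference in set 1. Fnip2, a partner of folliculin in nutrient sensing, was at 0.77 ± 0.31 and called in the paired fit. Outside the naming rule and chosen after their values were seen, further genes of the paired fit were Flcn, folliculin itself (0.57 ± 0.29, or 0.36 without the ug array of set 2), and Slc38a2, an amino acid carrier (0.50 ± 0.23). Chka, a choline kinase, was at 0.72 ± 0.20, the protease gene Adamts1 at 0.66 ± 0.19, and Has1, which makes hyaluronan, at 0.51 ± 0.17. Hes1, a target of Notch, was at 0.59 ± 0.15. Hexim1 (0.46 ± 0.14) and Ppp1r10 (0.49 ± 0.14), regulators of transcription by RNA polymerase II, and Rsrp1 (0.71 ± 0.19) were in the same direction.

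The 15 genes named as highest had median differences of 0.68, 1.32 and 0.59 in sets 1, 2 and 3. Their naming required ug arrays above all incubator arrays, so their direction in each set, or with 1 array left out, is fixed by that choice. Set 2 held the largest of the 3 differences for 13 of the 15, and for 42 of the 48 genes the paired fit called higher. The share over all genes was not taken, and these genes were read on the same arrays, so they are not separate observations. Leaving out 1 array moved Snora31 most in proportion, from 0.87 to 0.40 without the ug array of set 1.

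The genes lower at ug differed by less. Pdk4 (10543017) read 10.36, 10.32 and 10.31 in the incubator and 9.18, 9.79 and 9.48 at ug (-0.84 ± 0.40, paired fit, limma adjusted p = 0.00609). The incubator arrays were almost level and all 3 ug arrays lay below them. Txnip, which restrains glucose uptake, was called in the paired fit at -0.41 ± 0.24 and was named after its value was seen. The others it called lower were Il1a, Zfp39, a zinc finger gene (-0.50 ± 0.13), and Pakap (-0.48 ± 0.14). The other 11 of the 15 genes named as lowest were not called. Of these Vmn2r14 was at -0.43 ± 0.14, Zfp112 at -0.41 ± 0.11, Zfp617 at -0.41 ± 0.18, Kcnk6, a potassium channel, at -0.41 ± 0.10 and Mios, a part of the GATOR2 complex of nutrient sensing, at -0.40 ± 0.17. Smaller still were Gm5464 (-0.39 ± 0.11), Zkscan8 (-0.39 ± 0.13), Mir31, a microRNA gene (-0.38 ± 0.13), Slfn5 (-0.37 ± 0.10), Mybphl (-0.37 ± 0.11) and Rhobtb1 (-0.36 ± 0.08). In level, the 15 lower genes had a median of 7.13, the 15 higher ones of 8.45 and the whole set of tested genes of 8.41.

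Genes of the antibody's target pathway were close to level. Gja1 (10363173), the gene of connexin 43, read 11.88, 11.85 and 11.38 in the incubator and 11.74, 11.95 and 11.51 at ug (0.03 ± 0.18). Its groups overlapped, and the antibody acts on protein, so this RNA checks no label. Connexins and pannexins had 4 of 9 higher (median -0.02), receptors and enzymes of extracellular ATP and adenosine 1 of 11 (median -0.06) and mechanosensitive channels 3 of 12 (median -0.03). Prostaglandin E2 synthesis and receptors had 5 of 10 higher, and Ptgs2, the inducible cyclooxygenase, read 12.84, 12.87 and 12.91 in the incubator and 12.93, 13.06 and 12.92 at ug (0.10 ± 0.07).

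Bone and structural genes differed little. Matrix proteins and enzymes had 11 of 26 higher (median -0.01), with Lox, which crosslinks collagen, at -0.21 ± 0.14. Integrins and focal adhesion genes had 4 of 16 higher (median -0.03), with Itga1 at -0.30 ± 0.10, and targets of SRF and YAP, which follow actin tension, had 6 of 19 (median -0.03). All 10 Wnt and BMP antagonists lay below 0, between -0.11 and -0.02. Among osteocyte genes 6 of 11 were higher (median 0.00), with Pdpn, a membrane protein of early osteocytes, at 0.15 ± 0.07. Of the hypoxia and glycolysis list 8 of 16 were higher (median -0.01), with Pfkfb3 at -0.29 ± 0.11 and Bnip3 at -0.32 ± 0.20. In the Bcl2 family Bmf, which promotes cell death, was at -0.30 ± 0.12. Small shifts ran through 2 bright lists, with 13 of 13 ribosomal protein genes higher (median 0.06, Rpl13 at 0.17 ± 0.05, Rps19 at 0.32 ± 0.11) and 17 of 21 genes of oxidative phosphorylation (median 0.06, Ndufa1 at 0.34 ± 0.13). Cholesterol synthesis had 13 of 15 higher (median 0.09), and its feedback gene Insig1 was called in the paired fit at 0.40 ± 0.29. Against the same incubator arrays, the 1g and 2g medians were 0.04 and 0.04 for ribosomal protein genes and 0.06 and 0.03 for oxidative phosphorylation. They were 0.07 and 0.04 for cholesterol synthesis, and -0.09 and -0.09 for the Wnt and BMP antagonists against -0.08 at ug. These small shifts were thus not particular to ug. No other member named in this paragraph was called.

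Of the 7 osteocyte markers chosen, 4 were above the 40th percentile of the array on all 6 arrays. Gja1 and Pdpn were bright, and Sost (6.98 to 7.23 at ug) and Fgf23 (7.04 to 7.30 at ug) dimmer. Dmp1, Mepe and Phex were below that percentile on all 6. Of the 9 macrophage markers Ptprc, Adgre1, Itgam and Aif1 were below it on all 6 arrays, and Cd14, Cd68, Lyz2, Csf1r and Tyrobp above it on all 6. Of the 7 endothelial markers Kdr and Emcn were below it on all 6. Pecam1, an endothelial marker, was dim and higher at ug without overlap (5.69 to 5.80 in the incubator and 5.91 to 6.24 at ug). Tie1 was lower at ug without overlap (6.29 to 6.40 in the incubator and 6.25 at ug). The other endothelial markers overlapped, with Cdh5 at 6.47 to 6.66 in the incubator and 6.24 to 6.54 at ug. The mean level of the markers overlapped between the incubator and ug arrays for osteocytes (7.49 to 7.54 and 7.51 to 7.58), macrophages (6.54 to 6.65 and 6.56 to 6.66) and endothelial cells (6.02 to 6.14 and 6.06 to 6.07). It did not overlap for chondrocytes (7.61 to 7.62 in the incubator and 7.64 to 7.72 at ug), whose marker Sox9 was called in the paired fit (0.38 ± 0.41). Taken singly, every chondrocyte marker overlapped between the groups. Sox9 read 9.36 to 10.24 in the incubator and 9.82 to 10.59 at ug. Acan read 5.80 to 6.09 and 5.61 to 6.03, Col2a1 7.62 to 7.95 and 7.65 to 7.73, and Col10a1 and Comp were nearly level. Markers of other types were above the 40th percentile on all 6 arrays as well. These were 2 of the 4 osteoblast markers on the array, 3 of 4 for adipocytes, 4 of 5 for skeletal muscle and 3 of 5 for osteoclasts. Among them Ctsk, an osteoclast marker, read 10.30 to 11.94 at ug. The mean levels of these 4 types overlapped between the groups. The part of all these markers in the results was not tested.

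The 1g and 2g cells shared the platform and the antibody, so they ask whether the early genes were higher at the ug position than elsewhere on it. Gem read 6.97, 7.02 and 5.94 at 1g and 7.02, 6.84 and 6.43 at 2g, close to the incubator and far below ug. Fos read 7.16, 7.22 and 6.88 at 1g and 7.30, 7.13 and 7.07 at 2g, below every ug array. Atf3 read 8.35, 7.64 and 7.85 at 1g and 8.0, 7.87 and 7.97 at 2g, again below ug. Against ug these genes differed by 2.94 ± 0.75, 1.37 ± 0.34 and 1.43 ± 0.31 at 1g, and by 2.82 ± 0.75, 1.29 ± 0.34 and 1.42 ± 0.31 at 2g. Limma called 0 genes for ug against 1g (0%) and 0 against 2g (0%), while an unadjusted p below 0.05 was reached by 513 genes (3.54%) and 553 genes (3.82%). The paired fit of the 6 arrays compared called 2 genes against 1g, Gem and Egr1, and 7 against 2g, all of them higher at ug. In that fit Egr1 differed from 1g by 1.10 ± 0.09 (limma adjusted p = 0.00609). This error is that of the paired fit, in which the error of Gem was 0.24, and is not comparable with the errors given above. The 7 were Gem, Egr1, Fosb, Atf3, A3galt2, Plk3 and Nup210l, the last named after its value was seen. All 15 genes named as highest were above both positions, 14 of them at an unadjusted p below 0.05 against 1g and 13 against 2g. The 2 comparisons share the ug arrays with the one above, so this is not separate evidence about those arrays. Of the 15 genes named as lowest, 0 were above 1g or 2g by their means at ug. An unadjusted p below 0.05 in the 24-array fit was reached by only 2 of them against 1g and 4 against 2g. Pdk4 read 9.12, 10.76 and 9.49 at 1g and 9.24, 10.68 and 9.77 at 2g, a range that takes in the ug values.

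The smallest p-values against 1g were those of A3galt2, Slc23a3 and Ccnl1, and against 2g those of A3galt2, Slc23a3 and Cbll1. Slc23a3 is dim and read 5.61, 5.51 and 5.54 at 1g, 5.52, 5.57 and 5.65 at 2g and 5.88, 6.44 and 6.39 at ug. Its 1g and 2g readings were below the 40th percentile of every array, which ran from 5.90 to 6.08. Its place among the tested genes, like that of A3galt2, can thus depend on arrays where it was high. Ccnl1, a cyclin of RNA processing, was higher at ug than at 1g by 0.71 ± 0.15. Cbll1, a ubiquitin ligase, was lower at ug than at 2g, at -0.29 ± 0.06. None passed in the 24-array fit (limma adjusted p of 0.406 to 0.573), and of these genes the paired fit called A3galt2, against 2g (limma adjusted p = 0.0120).

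**Figure D3:**
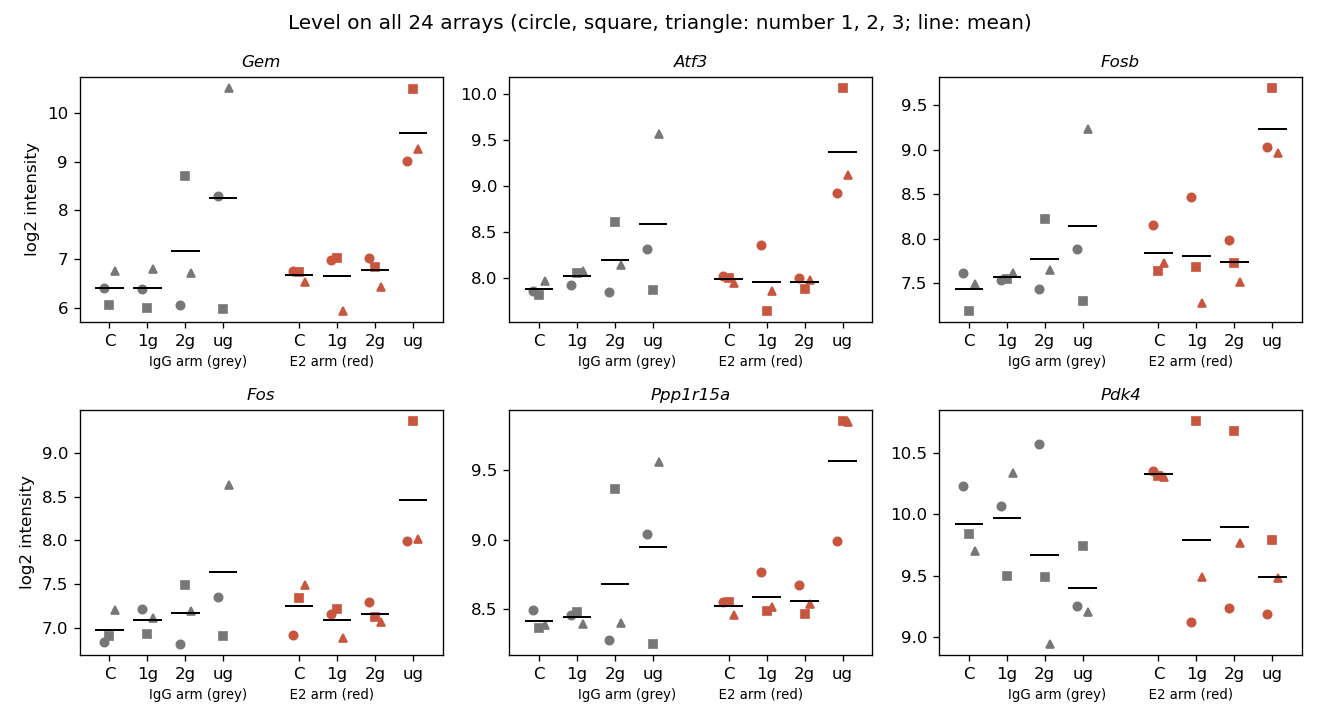
Log2 intensity of 6 genes on all 24 arrays, the IgG arm in grey and the E2 arm in red, with a line at each group mean and each panel on its own axis. In the E2 arm Gem, Atf3, Fos and Ppp1r15a stand above C, 1g and 2g on all 3 ug arrays, whereas in the IgG arm the ug array of number 2 stays near C and that of number 3 is highest.

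The study was designed to set cells with free hemichannels beside cells with blocked ones. In the IgG arm Gem read 6.41, 6.06 and 6.76 in the incubator and 8.30, 5.97 and 10.50 at ug. Number 2 was level with the incubator, and number 3 reached the highest value of the E2 arm. Ppp1r15a read 8.49, 8.37 and 8.39 in the incubator and 9.04, 8.25 and 9.56 at ug, again with number 2 level. Fosb read 7.61, 7.19 and 7.49 in the incubator and 7.88, 7.29 and 9.24 at ug, where only number 3 was far from the incubator. The ug difference in the IgG arm was 1.85 ± 0.75 for Gem, 0.70 ± 0.31 for Atf3, 0.71 ± 0.36 for Fosb and 0.65 ± 0.34 for Fos. It was above 0 for all 15 genes named as highest in the E2 arm, from 0.08 to 1.85 with a median of 0.53, and smaller than in the E2 arm for all 15. These genes were chosen for their size in the E2 arm, which favours that order. The early lists were more mixed in the IgG arm. There 7 of 11 AP-1 factors were higher at ug (median 0.10), 10 of 12 of the Egr and Nr4a list (0.20) and 6 of 8 CREB targets (0.05). The same held for 5 of 13 of the Klf list (-0.01), 7 of 15 MAP kinase phosphatases and Sprouty proteins (-0.01) and 2 of 3 of Gem and its relatives (0.05). Without the 2g and ug arrays of IgG number 2 the IgG differences of the 15 genes ran from 0.23 to 2.99 with a median of 0.82, and 12 of the 15 were smaller than in the E2 arm. Gem was then at 2.99 ± 0.50 in the IgG arm, Atf3 at 1.06 ± 0.30, Fosb at 1.13 ± 0.34 and Fos at 1.02 ± 0.34. The ug array left out was the lowest of the 3 for each of the 15, so its removal had to raise these values.

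The difference between the arms, tested by itself, called 0 genes (0%) with a smallest adjusted p above 0.99, and 523 genes (3.61%) had an unadjusted p below 0.05. For Gem it was 1.06 ± 1.06, for Atf3 0.68 ± 0.44, for Fosb 0.69 ± 0.50 and for Fos 0.56 ± 0.48. Rgs2 was the only one of the 15 with an unadjusted p below 0.05, at 0.67 ± 0.30, since its IgG difference was 0.08. Without the 2 IgG arrays Gem turned to -0.08 ± 0.68, Atf3 was at 0.32 ± 0.40, Fosb at 0.26 ± 0.45 and Fos at 0.19 ± 0.46, 0 of the 15 had an unadjusted p below 0.05, and 0 genes were called with 303 at that level. With the set as a block the count stayed at 0 of all genes, with 1043 at an unadjusted p below 0.05. An effect of the antibody on these genes was thus not detectable with 3 arrays a group, where the interval around each value is wide.

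Among the 15 lower genes 10 were also lower at ug in the IgG arm, among them Pdk4 (-0.53 ± 0.40) and Il1a, whose difference there was -0.84 ± 0.27. Il1a read 8.64, 7.89 and 8.36 in the IgG incubator and 7.46, 7.21 and 7.69 at ug, below on every array. The difference between the arms had an unadjusted p below 0.05 for 6 of the 15, Gm5464, Mybphl, Slfn5, Mir31, Vmn2r14 and Rhobtb1, and for 5 of the 15 without the 2 IgG arrays. These genes were chosen for their E2 difference, which is part of this contrast, so such a count is favoured by the choice. The first 5 of these were higher at ug in the IgG arm. Over all genes the smallest p-values for the difference belonged to Ezhip, Hnf4aos and Gm5627, all dim. Hnf4aos read 6.02 on all 3 IgG incubator arrays and 6.40, 6.41 and 6.20 at IgG ug. In the E2 arm it read 6.41, 6.54 and 6.52 in the incubator and 6.42, 6.31 and 6.38 at ug. The ug arrays of both arms overlapped and the incubator arrays did not. Ezhip did the same, at 6.09, 5.91 and 6.11 in the IgG incubator against 6.47, 6.44 and 6.54 in the E2 incubator, and 6.03, 6.38 and 6.43 against 6.30, 6.18 and 6.15 at ug.

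**Figure D4:**
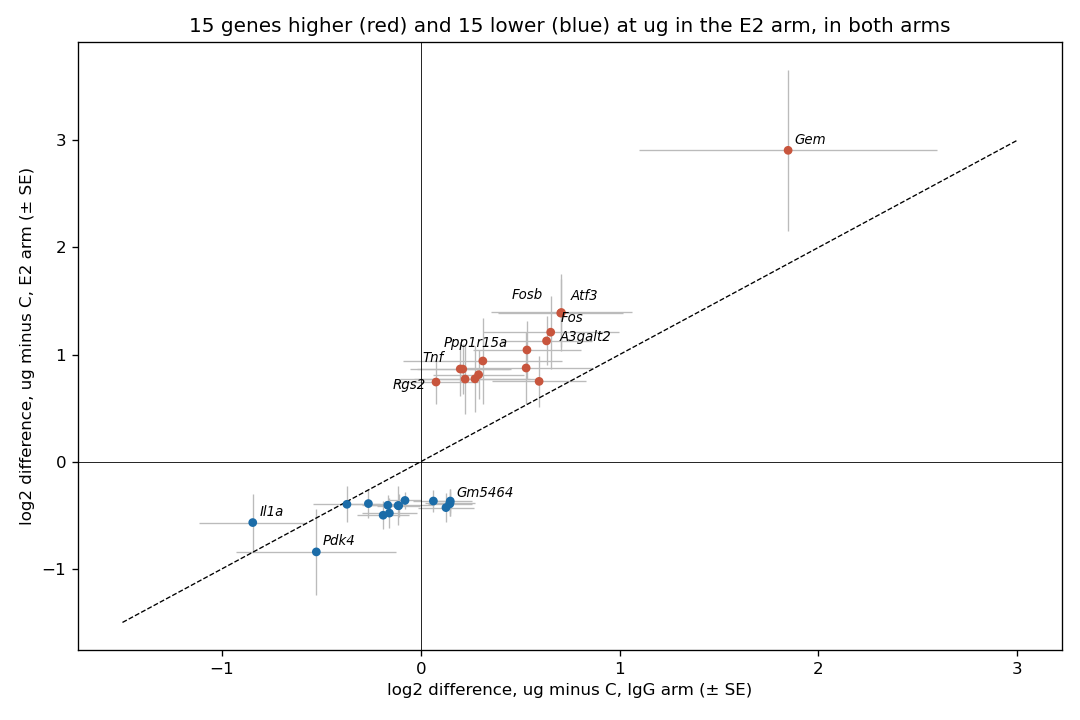
Difference of ug and C in the E2 arm (vertical) against the same in the IgG arm (horizontal), log2, with standard errors from the 24-array fit, for the 15 genes named as highest (red) and the 15 as lowest (blue). The dashed line marks equal differences. All red points lie above it and right of 0, and their bars are wide.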

How the data were processed

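Total RNA was extracted with Trizol and labelled by the Affymetrix cRNA protocol, per the labels' protocols. The values deposited by the authors are log2 intensities of 35556 probe sets, judged from the values. MAS5 is named per the submitters' processing notes, with no version or role, and the scaling between arrays is not stated. The precision is set by the number of arrays. Probe sets were named where the array's table gave exactly 1 symbol (21789), of which 21698 matched RefSeq by gene number. A row was kept if 3 or more of the 24 arrays read it at or above their own 40th percentile, and the brightest of a gene was used (14489 genes). Limma 3.58.1 in R 4.3.3 fitted 8 group means with a variance trend (16 residual degrees of freedom), two-sided, with Benjamini-Hochberg adjustment at 0.05. The paired fit used 6 arrays with the number as a block.

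Arrays were paired by the number in their titles. Deviations from group means of the ug and C arrays of the same number correlated at 0.43, 0.53 and 0.63 across genes. All 18 same-number pairs of the E2 arm lay between 0.19 and 0.81. Among the 36 pairs of unlike number, 11 exceeded 0.1 (up to 0.48), all joining numbers 1 and 2. The C array of number 1 and the ug array of number 2 correlated at 0.41, and C of number 2 with ug of number 1 at 0.02. The data thus set number 3 apart but do not clearly separate numbers 1 and 2. Genes were named by rule: Gja1, the 15 largest differences in each direction with an unadjusted p below 0.05 and no overlap of arrays, up to 4 members of smallest p in each list, and the 3 of smallest p in each other contrast. Genes and lists were chosen with earlier results of these data known. The code was tested on simulated data. Rows without 1 symbol were tested apart. Alternatives were other blocks, quantile normalization, no filter, the mean of a gene's probe sets, no variance trend and leaving out each array.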

Additional observations from a re-analysis of the deposited data

How the results depend on the processing

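For ug against C in the E2 arm, the count of called genes (0) stayed 0 with the block within arm, a block by number across the 24 arrays, quantile normalization, no filter, the mean of probe sets, no variance trend and only the 6 arrays unpaired. It was 53 in the paired fit of 6 arrays. It was 4 without the 2g and ug arrays of IgG number 2, a setting chosen after seeing the data. Leaving out 1 array gave 0 to 1 (Slc23a3 without the ug array of set 1). With the replicate block, leaving out a set gave 0 to 10 (10 without set 1, 1 without set 3). The difference between arms stayed at 0 called under every setting run. For ug against 1g the paired fit called 2 genes, leaving out 1 array gave 0 to 1, and leaving out a set with the block gave 0 to 5. For ug against 2g these were 7, 0 to 1, and 0 to 82 (82 without set 1). Of list members called (0), the paired fit had 25, and the block without set 1 gave 3.

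The paired count itself, 53, was 24 over the 12 arrays of the E2 arm, 1 without the variance trend, 0 without the replicate block, and 51 to 418 when a number was left out, settings chosen after seeing the data except the unblocked one. The median of 20 of the 35 gene lists and of all 7 marker lists changed sign under some setting, among them cholesterol synthesis, heat shock proteins, p53 targets, chemokines, Gem and its relatives, autophagy and the TGF-beta family. Of 83 named genes, 3 changed sign anywhere. Leaving out 1 array moved Gja1 (0.03) between -0.13 (without the C array of set 3) and 0.15, Jun (0.04) between -0.0624 and 0.14 and Fosl1 (0.03) between -0.0014 and 0.0641, the lower ends without the ug array of set 2 for Jun and Fosl1. Gja1 was also -0.07 without the ug array of set 2 and Jun -0.06 without the C array of set 3. With the replicate block, Gja1 was -0.00061 without set 2 and -0.0138 without set 3, and Jun -0.0015 without set 2. The causes were not tested. Fold differences of dim genes are limited by signal near background.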

Other observations

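Probe sets without exactly 1 gene symbol were tested apart. Of 6855 such rows, limma called 0 for ug against C in the E2 arm and 394 had an unadjusted p below 0.05, and the paired fit of 6 arrays called 0.

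Lists not described above gave these values for ug against C in the E2 arm. Targets of NRF2, the factor of the antioxidant response, were higher for 14 of 19 (median 0.06), autophagy and lysosome genes for 12 of 18 (median 0.03) and ligands and responses of the TGF-beta and BMP family for 10 of 14 (median 0.02). Ligands of the EGF receptor, which act upstream of the early genes, were higher for 4 of 6 (median 0.12). Interferon response genes were split 8 and 8 (median 0.00), and their median differed between sets, at -0.26, -0.04 and 0.23 in sets 1, 2 and 3. Cell cycle and replication genes were higher for 7 of 23 (median -0.03), circadian clock genes for 8 of 15 (median 0.03) and osteoclast control genes for 2 of 6 (median -0.06).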
